A study of Homo sapiens with 2 samples.

Results

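Acetylation of lysine 27 of histone H3 (H3K27ac), found at promoters and enhancers in use, was examined at the genes of 10 T-cell cytokines in LOUCY, an established human T-ALL cell line (T-ALL is acute lymphoblastic leukaemia of the T lineage) that serves as a model of the immature form of this disease. The genes were IL3, CSF2, IL5, IL13, IL4, IL2, IFNG, IL10, LTA and TNF. They were taken as 6 windows of the hg19 genome, of 20 to 160 kb and 326 kb in all, chosen by position around the genes. A peak of the authors' list belonged to a window if 1 bp or more of it lay inside. This gave 17 of 52203 peaks. The series held 1 H3K27ac ChIP library and 1 input library of sheared chromatin from cells of the same line, grown in culture, with no further treatment group given in the labels. There were no replicates, so all values are descriptions of 1 library pair and no difference was tested. The ChIP library had 54357332 tags and the input library 71932640 tags after the caller's filter. Positions of the genes inside the windows were not used here, so peaks are described by window and not assigned to a promoter or gene. The T-cell label was not checked against marker genes for the same reason.

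Cytokine genes are mostly silent in resting and immature T cells and are switched on after receptor stimulation, when NFAT, AP-1 and NF-kB factors bind their promoters and enhancers. IL3, CSF2, IL5, IL13 and IL4 lie in 1 cluster on 5q31 and are typical of type 2 helper cells or activated T cells generally. IL2 is the T-cell growth factor, IFNG the type 1 helper and natural killer cytokine, IL10 the anti-inflammatory one, and LTA and TNF are neighbouring members of the tumour necrosis factor family within the major histocompatibility complex. H3K27ac at such a locus can be on a promoter, on an enhancer or on a neighbouring gene, and in a bulk library a mark present in few cells and a weak mark present in all cells give the same value.

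Marked sequence was unevenly shared among the 6 windows. The windows of IL10 and of LTA and TNF were covered almost throughout, that of IL3 and CSF2 over the larger part, and those of IFNG and IL2 hardly or not at all. At least 1 peak was found in 5 of the 6 windows. For comparison, 24.9% of all 20 kb stretches of the genome, 30.8% of 30 kb stretches, 33.7% of 36 kb stretches, 35.5% of 40 kb stretches and 59.2% of 160 kb stretches touched a peak. A peak with a fold of at least 4 over input was found in 4 of the 6 windows, against 14.2% of 20 kb stretches, 18.4% of 30 kb stretches, 20.6% of 36 kb stretches, 21.9% of 40 kb stretches and 45.5% of 160 kb stretches. These stretches include regions without genes and unsequenced parts, so they are not a background of gene neighbourhoods. At LTA and TNF the peaks of fold 4 or more crossed the window's edge, and the highest fold with the midpoint inside was 3.22. Peaks covered 27.1% of the 6 windows together, against 4.90% of the genome. Peaks touching the windows, with the 5 that crossed an edge counted whole, numbered 52.1 per Mb, against 17.2 peaks per Mb in the genome.

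**Figure D1:**
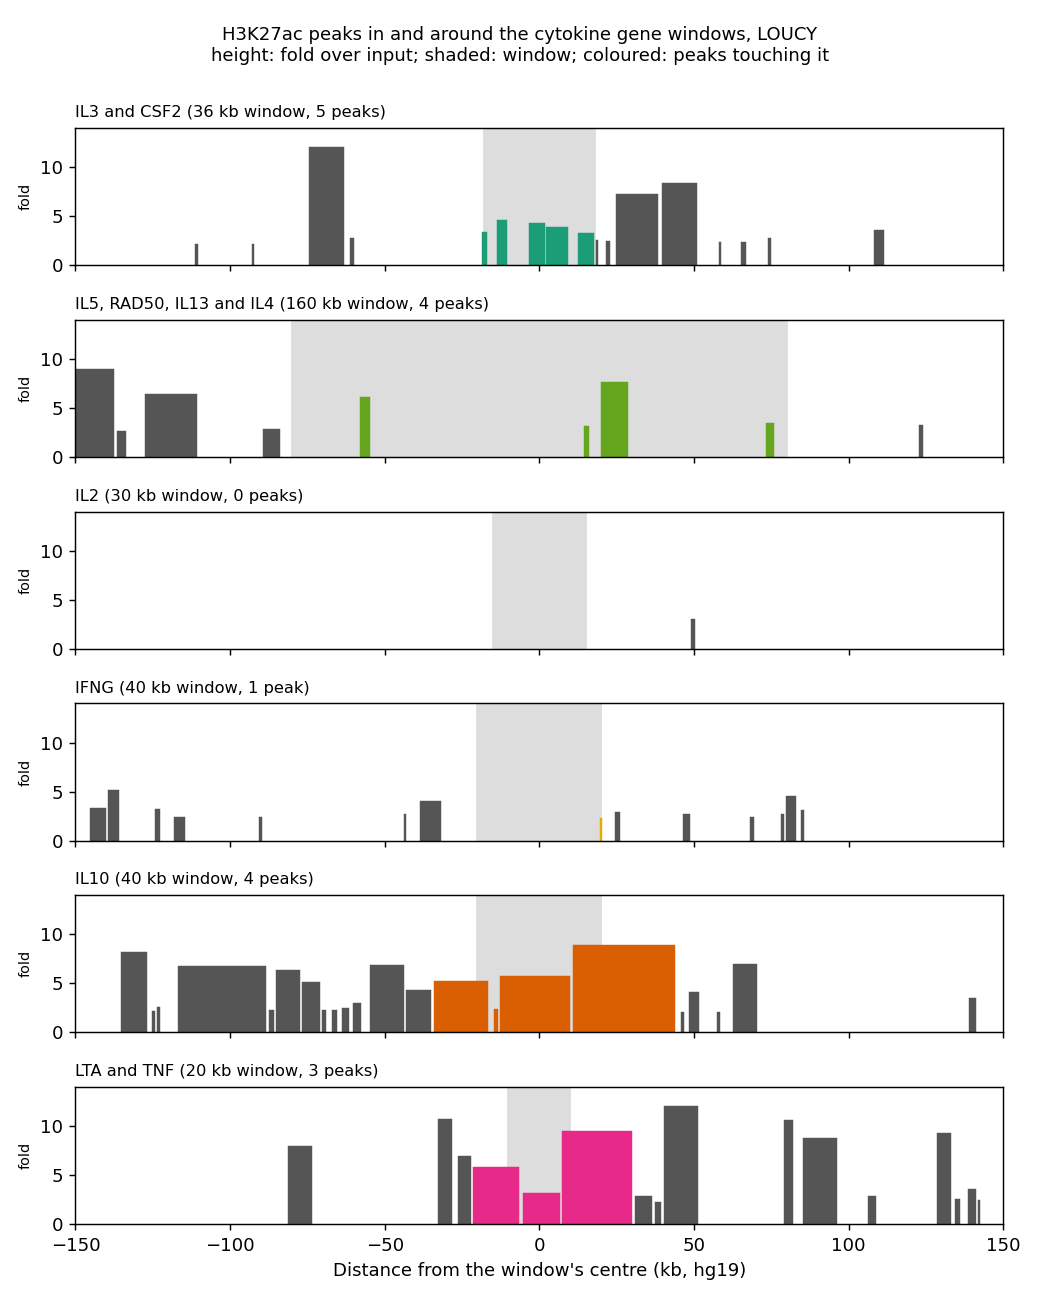
H3K27ac peaks within 150 kb of the centre of each cytokine window. The horizontal axis is the distance from the window's centre in kb, the height of a bar is the peak's fold over input, shading marks the window and coloured bars are the peaks touching it. The IL10 and LTA and TNF windows are filled by wide peaks, the IL3 and CSF2 window holds 5 modest peaks between stronger ones, and the IL2 window is empty.

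**Figure D2:**
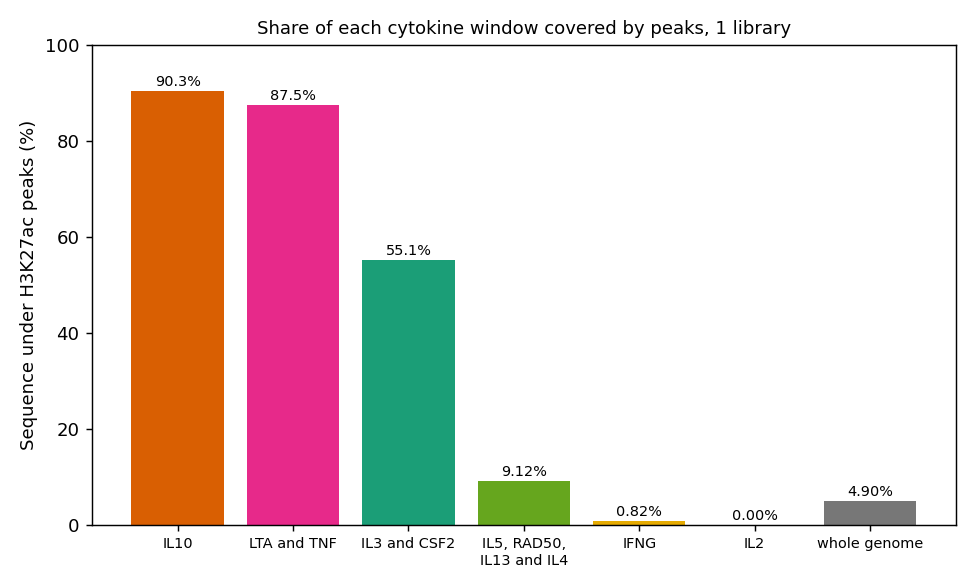
Share of each cytokine window, and of the whole genome, that lay under H3K27ac peaks, in percent. Bars run from 90.3% for IL10 to 0% for IL2, with 4.90% for the genome.

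Among the 17 peaks themselves, 9 had a fold of at least 4 (52.9%), against 37.4% of all peaks. A -log10 q of at least 10 was reached by 7 of the 17, against 36.8% of all peaks, and a fold below 3 was seen for 2 of the 17, against 48.2% of all peaks. The median fold was 4.29 in the windows and 3.08 over all peaks, and the median width was 4739 bp in the windows and 1670 bp over all peaks. No window peak reached a fold of 10, a level that 5.21% of all peaks had, and the highest-ranked of them by fold was number 3437 of the list. Of the 17, 6 (35.3%) were 10 kb or wider, against 4.37% of all peaks, and all 6 were at the IL10 and the LTA and TNF windows. Overlap of 1 bp picks up wide peaks more readily than narrow ones, so part of the greater width follows from the rule. Since 5 of the 17 crossed a window's edge, part of their sequence lay outside. Of these, the ones at IL10 and at LTA and TNF had folds of 5.29, 8.90, 5.80 and 9.48, with 11.4% to 28.1% inside. Each is among the peaks of fold 4 or more, of -log10 q 10 or more and of 10 kb or wider. The shares above are thus partly those of sequence outside the windows.

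**Figure D3:**
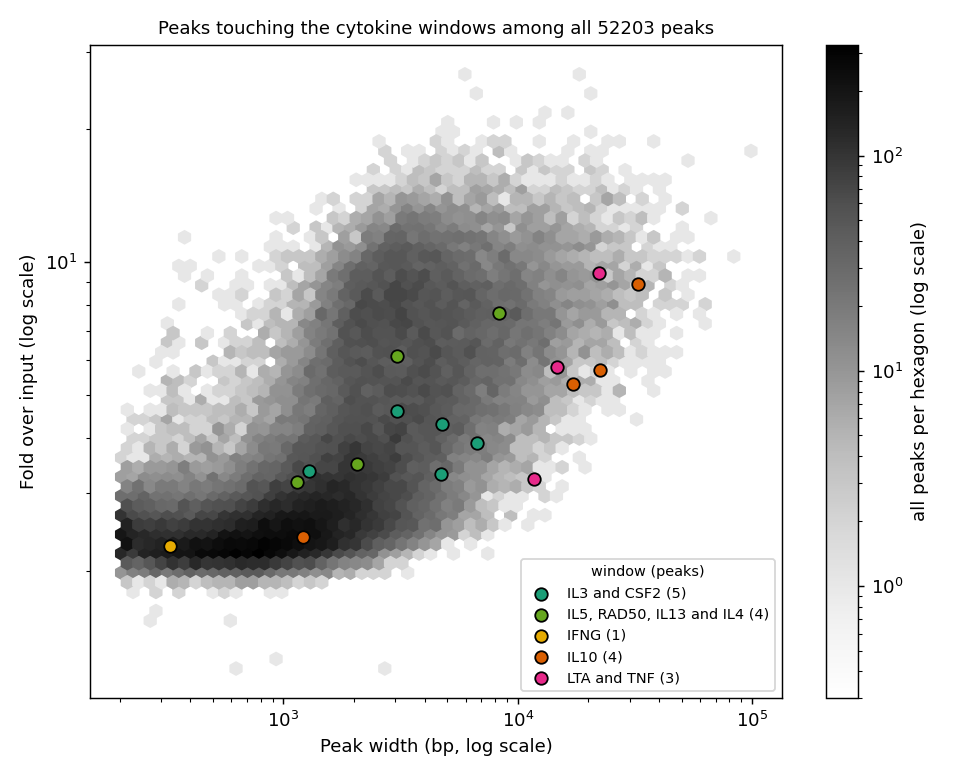
Fold over input against width in bp, both on log scales, for all 52203 peaks (grey hexagons, shaded by number) and for the peaks touching each cytokine window (coloured points). The widest of these touch the IL10 and the LTA and TNF windows, some with most of their length outside. The 11755 bp LTA and TNF peak lies at the low edge of fold for its width.

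The IL10 window on chromosome 1 had the highest covered share, 90.3% of its 40 kb. Only 0.101% of 40 kb stretches of the genome were covered as much. Its centre was taken up by a peak of 22518 bp (206927238 to 206949755) whose fold was 5.71, with a -log10 q of 31.2, which lay wholly inside. It ranked 366 by width and 13016 by fold, so it was among the widest peaks but not among the strongest.

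Beside it began a still wider and stronger peak of 32680 bp (206950811 to 206983490). Its fold was 8.90, with a -log10 q of 56.3. It ranked 116 by width, and 28.1% of it lay in the window. On the other side a peak of 17278 bp (206905925 to 206923202, fold 5.29) reached in with 18.5% of its length. The fourth peak, of 1215 bp, had a fold of 2.39. In the RefSeq order of protein-coding genes IL10 lies between MAPKAPK2, a stress-activated kinase gene, and IL19 and IL20, which encode cytokines of the IL-10 family. Which of these genes the wide peaks lie on was not determined.

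Peaks less than 12.5 kb apart were joined into 25510 regions, ordered by fold times width summed over their peaks, and the region at IL10 was number 15. It spanned 205.5 kb (206804665 to 207010213) with 21 peaks, and its strongest peak was the 32680 bp one touching the window. No peak within 100 kb of the window, among 14, had a higher fold than that one. The nearest on either side had folds of 4.33 (206896825 to 206904650) and 2.09 (206985972 to 206986362).

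The LTA and TNF window on chromosome 6 was covered over 87.5% of its 20 kb, a share reached by 0.394% of stretches of that length. LTA encodes lymphotoxin alpha, and TNF encodes tumour necrosis factor. The peak that filled the middle of the window (31534769 to 31546523) was 11755 bp wide but weak, with a fold of 3.22 and a -log10 q of 4.65. Of the 1319 peaks of 10 to 15 kb in the list, 15 (1.14%) had a fold as low as this, while the median fold of those 1319 was 7.43.

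The peaks on either side of it were stronger, and lay mostly outside the window. One of 22175 bp (31547464 to 31569638) had a fold of 9.48, the highest of all 17 window peaks, with 11.4% of its length in the window. One of 14694 bp (31518508 to 31533201) had a fold of 5.80, with 21.8% inside. Most of the sequence behind the value of 9.48 thus lay outside the window, and among peaks with their midpoint inside the highest fold was 3.22. In the RefSeq gene order LTB, the gene of lymphotoxin beta, and LST1, a leukocyte gene, follow TNF, and NFKBIL1 precedes LTA. The joined region held 8 peaks over 83.6 kb and ranked 122 of 25510. Of the 9 other peaks within 100 kb, 3 were stronger than any touching the window, up to a fold of 12.1. The nearest on either side had folds of 6.90 (31513631 to 31517607) and 2.85 (31570798 to 31576047).

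The IL3 and CSF2 window on chromosome 5 held the most peaks, 5, which covered 55.1% of its 36 kb. Only 1.29% of 36 kb stretches were covered as much. IL3 encodes a growth factor of early blood cells, and CSF2 encodes granulocyte-macrophage colony-stimulating factor. All 5 were of modest fold, from 3.32 to 4.61, and none reached a -log10 q of 10. From the side of IL3 to that of CSF2 they had folds of 3.36 (131385372 to 131386658), 4.61 (131390207 to 131393255), 4.29 (131400635 to 131405373), 3.89 (131406268 to 131412973) and 3.32 (131416562 to 131421246).

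The widest of them, of 6706 bp, had a fold on the low side for its width, though less so than the 11755 bp LTA and TNF peak. Among 5888 peaks of 4 to 7 kb, 17.2% had a fold as low as its 3.89, and all 3 peaks of such a width in the window lay below that class's median fold of 6.18. Stronger peaks flanked the pair of genes on both sides. The strongest of the 12 others within 100 kb (131329412 to 131340376) had a fold of 12.1, and 3 of the 12 exceeded every peak in the window. ACSL6, an acyl-CoA synthetase gene, precedes IL3 in the RefSeq order, and P4HA2, a collagen hydroxylase gene, follows CSF2. Joining peaks less than 12.5 kb apart placed all 5 in a region of 93.3 kb with 12 peaks, number 515 of 25510. The 5 window peaks made up 29.2% of this region's sum of fold times width, and its strongest peak (fold 8.36) lay outside the window. With joining within 5 kb, 2 of the 5 fell in a region of their own, number 12093 of 35140, and the other 3 in one that ranked 435. The nearest peaks outside the window were weak, with folds of 2.83 (131342932 to 131343658) and 2.58 (131422291 to 131422557). Of the regions at the windows, those at IL10, at LTA and TNF, and at IL3 and CSF2 were among the 1421 large domains set apart where the slope of the ranked curve reached 1, and the others were not. The window peaks made up 49.3% of the sum at IL10 and 60.2% at LTA and TNF, so each rank is that of a region reaching beyond its window.

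The window of IL5, RAD50, IL13 and IL4 was the longest, 160 kb, and had 4 peaks that covered 9.12% of it. Of 160 kb stretches, 17.8% were covered as much. IL5 drives eosinophils, IL4 and IL13 are the central type 2 cytokines, and RAD50, a DNA double-strand break repair gene active in most cells, lies between IL5 and IL13. In mice, the 3' part of Rad50 holds the locus control region of the type 2 cytokine genes.

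The strongest peak of this window (131969947 to 131978279) spanned 8333 bp and had a fold of 7.68 and a -log10 q of 26.7. It began 99.95 kb from the window's IL5 end and ended 51.7 kb from its IL4 end. A peak of 1140 bp with a fold of 3.18 (131964464 to 131965603) lay 4.34 kb before it. The second-strongest peak (131892007 to 131895060) spanned 3054 bp and had a fold of 6.14. Near the IL4 end was a peak of 2068 bp with a fold of 3.50 (132023371 to 132025438). Long stretches between them were free of peaks, 69.4 kb between the peak of fold 6.14 and the next, and 45.1 kb between the strongest peak and the one near the IL4 end. Such gaps were not rare: 14.8% of the gaps between neighbouring peaks in the genome were as long as the longer of these. One of the 9 other peaks within 100 kb was stronger than those in the window (131785655 to 131812211, fold 8.99). The nearest on either side had folds of 2.92 (131860648 to 131865985) and 3.24 (132072830 to 132073720). In the RefSeq order IRF1, an interferon-induced transcription factor gene, precedes IL5, and KIF3A, a kinesin gene, follows IL4.

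The IFNG and IL2 windows were at or near zero. The single peak in the 40 kb IFNG window on chromosome 12 (68569619 to 68569946) spanned 328 bp, had a fold of 2.28 and a -log10 q of 1.77, and ended 0.05 kb from the window's edge. It covered 0.82% of the window, and 34.2% of 40 kb stretches were covered as much. The 51.7 kb before it had no peak. All 10 other peaks within 100 kb had a higher fold, the highest being 4.53 (68629833 to 68632771). The nearest on either side had folds of 4.07 (68511351 to 68517964) and 2.92 (68574337 to 68575743). IL26 and IL22, cytokine genes of the IL-10 family, follow IFNG in the RefSeq order.

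In the 30 kb IL2 window on chromosome 4 there was no peak, and it lay in a peak-free stretch of 345.3 kb. Of all 52180 gaps between neighbouring peaks, 2.51% were as long, and the median gap was 11.8 kb. The nearest peaks were 281.2 kb away on one side (123077425 to 123078849, fold 3.0) and 34.1 kb away on the other (123424119 to 123425154, fold 3.09). IL2 lies between ADAD1, a testis gene, and IL21, another cytokine gene, in the RefSeq order. A stretch without a peak is one below the caller's threshold in this library and is not shown to lack the mark.

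The promoters of 9 of the 10 genes, all but IL5, were in the RefSeq promoter table of GRCh38.p14, each of 300 bases, mostly upstream of the start of the gene. The promoters of the window touched by the strongest peak (LTA and TNF), of that with the weakest (IFNG) and of that with no peak (IL2) are shown. LTA and TNF come first only through the peak of fold 9.48 at the window's edge. Among peaks with their midpoint inside, the highest fold was 3.22 there, below 7.68 at IL5, RAD50, IL13 and IL4, 5.71 at IL10 and 4.61 at IL3 and CSF2. Capitals mark matches, on either strand, to the NFAT core GGAAAA, the AP-1 site TGANTCA, an NF-kB pattern (GGG and CC parted by 5 bases of any kind) or the TATA box TATAAA. The GRCh38 positions are not comparable with the hg19 positions of the peaks, and no match is shown to be a bound site. The LTA promoter lies at chr6:31571849-31572148 on the plus strand, TNF at chr6:31575315-31575614 on the plus strand, IL2 at chr4:122456676-122456975 on the minus strand and IFNG at chr12:68159691-68159990 on the minus strand.
LTA: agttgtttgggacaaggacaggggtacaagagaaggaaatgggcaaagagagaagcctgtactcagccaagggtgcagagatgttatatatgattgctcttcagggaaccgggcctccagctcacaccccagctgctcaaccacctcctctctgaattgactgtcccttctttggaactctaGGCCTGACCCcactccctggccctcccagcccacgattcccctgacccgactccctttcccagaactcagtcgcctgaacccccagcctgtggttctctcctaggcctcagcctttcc
TNF: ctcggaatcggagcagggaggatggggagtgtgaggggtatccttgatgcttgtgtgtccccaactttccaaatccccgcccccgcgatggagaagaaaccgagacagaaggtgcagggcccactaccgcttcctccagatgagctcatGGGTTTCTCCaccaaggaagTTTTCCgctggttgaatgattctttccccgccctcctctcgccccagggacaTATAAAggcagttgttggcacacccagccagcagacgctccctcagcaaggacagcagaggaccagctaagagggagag
IFNG: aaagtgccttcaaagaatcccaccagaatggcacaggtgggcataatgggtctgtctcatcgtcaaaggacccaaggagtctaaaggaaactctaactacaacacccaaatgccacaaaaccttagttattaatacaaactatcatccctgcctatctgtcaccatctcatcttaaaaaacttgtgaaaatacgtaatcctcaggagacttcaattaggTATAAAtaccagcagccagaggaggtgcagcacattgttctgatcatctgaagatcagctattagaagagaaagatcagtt
IL2: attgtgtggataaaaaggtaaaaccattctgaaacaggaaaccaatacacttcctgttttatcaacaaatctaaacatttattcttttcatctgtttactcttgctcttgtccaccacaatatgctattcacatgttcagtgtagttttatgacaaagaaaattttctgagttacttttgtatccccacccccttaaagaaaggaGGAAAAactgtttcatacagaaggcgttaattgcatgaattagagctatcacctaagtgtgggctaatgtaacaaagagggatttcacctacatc

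In TNF, an NF-kB pattern ended 91 bases before the start, an NFAT core on the opposite strand 75 bases before it and a TATA box 23 bases before it, with no overlap between them. LTA held 1 NF-kB match, on the opposite strand, 58 bases before the start. IL2 held 1 NFAT core, 39 bases before the start, and IFNG 1 TATA box, 25 bases before it. Over the 9 promoters, the NFAT core was found in 4 (44.4%), against 24.3% of all 27305 promoters. The TATA box was found in 3 (33.3%), against 11.95% of all, the NF-kB pattern in 4 (44.4%), against 58.0% of all, and the AP-1 site in 0, against 7.76% of all. The letters searched are loose patterns, and these counts over 9 promoters are a description of the sequences.

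CpG pairs, which are dense at the promoters of widely expressed genes, were few at most of these promoters. IL2 had 1, IFNG and IL10 2 each, IL4 3, CSF2 and LTA 4 each, IL3 9, TNF 11 and IL13 37. The median was 4 in the 9 and 14 over all promoters. IL10, in the window with the highest covered share, and IFNG, in one almost free of peaks, thus had the same number. RAD50 had 27. The IL13 value is for the outermost start that RefSeq lists, and other IL13 transcripts may begin elsewhere. The 21 of 31 other cytokine genes with a promoter in the table had a median of 4, and the 20 of 22 regulators of cytokine genes a median of 22. None of these listed genes had a position in the small hg19 gene set at hand, so no peak was placed at them.

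**Figure D4:**
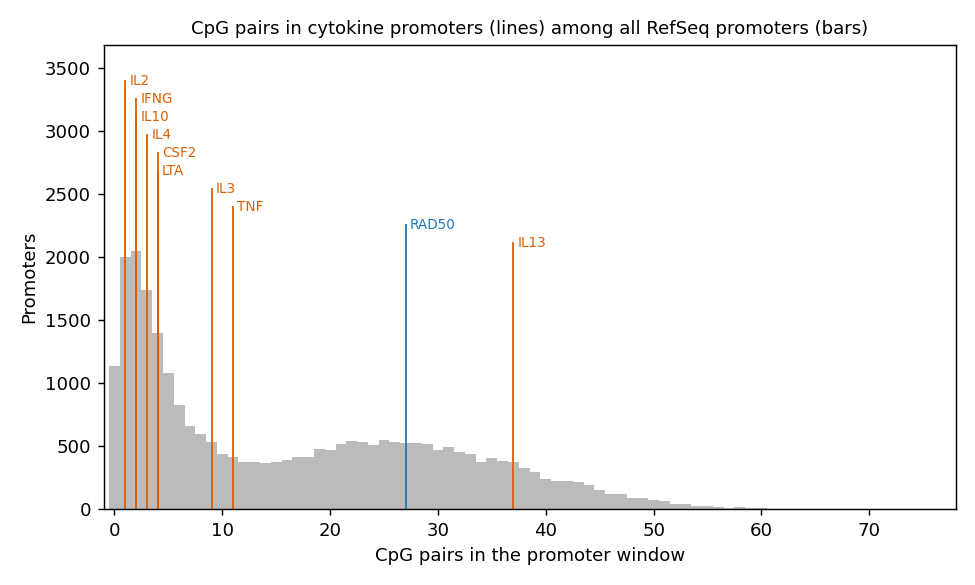
CpG pairs in the 300-base promoters of 9 cytokine genes (orange lines) and of RAD50 (blue line), over the number of all RefSeq promoters with each count (grey bars). Of the 9 cytokine promoters, 8 have 11 pairs or fewer, and IL13 has 37.

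Fold depends on the input level, and the level implied at the peaks differed between the windows. Worked out from the fold and p of each peak, it had a median of 5.10 tags at the 9 peaks of the chromosome 5 windows, 8.13 at the 8 peaks of the other windows and 6.33 over all peaks. Around the chromosome 5 windows, peaks within 2.5 Mb had a median input level of 4.80 at IL3 and CSF2 and 4.78 at IL5, RAD50, IL13 and IL4. It was 7.95 around IL2, 7.72 around IFNG, 6.63 around IL10 and 6.43 around LTA and TNF. The lowest implied level of any peak in the list was 4.11. Levels at the chromosome 5 peaks, 4.47 to 6.04, lay near this lower limit, and whether they follow the local input was not tested. A low input raises fold at a given amount of ChIP signal.

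The ChIP level implied in the same way is the fold multiplied back by the implied input level, so it is not a separate measurement. It stood further apart than fold did between the chromosome 5 windows and the others. A higher implied input at the peaks of the other windows gives such a wider spread by calculation. The median fold was 3.89 at the chromosome 5 peaks and 5.50 at those of the other windows. The median implied ChIP level was 23.6 tags at the chromosome 5 peaks and 49.7 at those of the other windows, against 22.2 over all peaks. Both medians of the other windows include edge-crossing peaks, of folds 5.29, 8.90, 5.80 and 9.48, that lay mostly outside. The peaks wholly inside those windows had folds of 2.28, 2.39, 3.22 and 5.71, and implied ChIP levels of 14.9, 17.3, 19.3 and 73.5. The chromosome 5 peaks wholly inside had folds of 3.18 to 7.68 and levels of 16.4 to 46.7. The higher medians of the other windows thus rest largely on sequence outside them. The IL10 peaks of 22518 and 32680 bp had implied ChIP levels of 73.5 and 93.8, at the 88.9 and 95.6 percentiles of all peaks, whereas their folds were at the 75.1 and 91.4 percentiles. The strongest IL3 and CSF2 peak had a level of 25.6, at the 56.1 percentile, and a fold at the 67.7 percentile. The 8333 bp peak of the IL5, RAD50, IL13 and IL4 window had a level of 46.7, at the 74.4 percentile, and a fold at the 86.0 percentile. In each window with a peak, the same peak was highest by fold and by implied ChIP level, which is itself worked out from the fold. The part of the input level in the order of the windows was not tested.

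**Figure D5:**
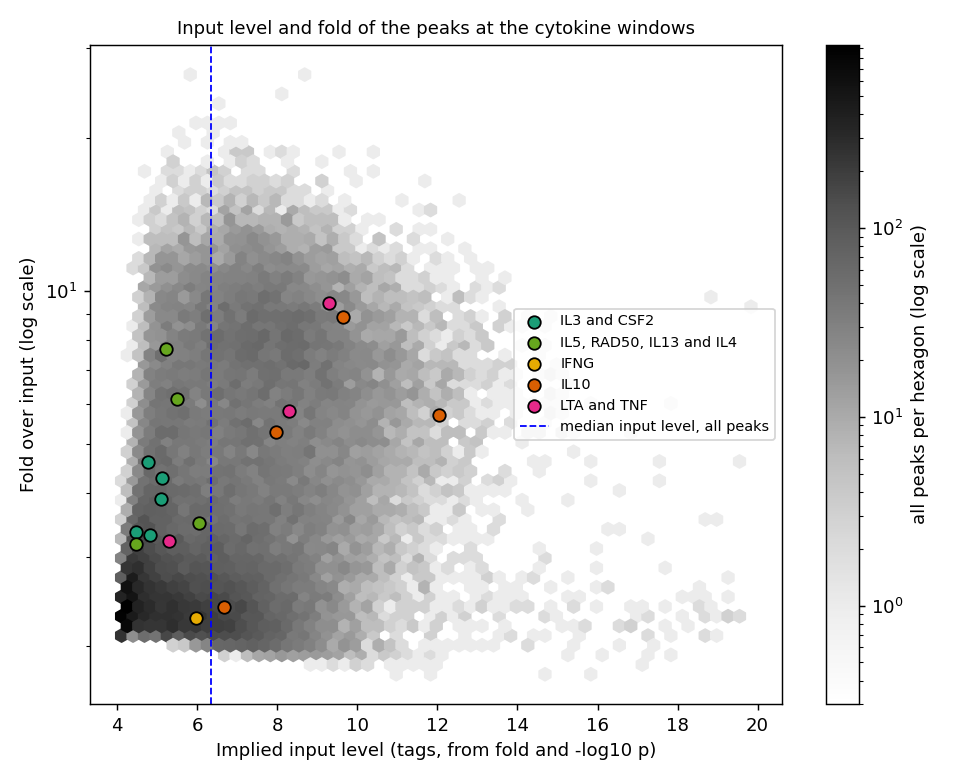
Implied input level in tags (horizontal axis) and fold over input (vertical axis, log scale) of the peaks touching each cytokine window (coloured points) and of all peaks with a level up to 20 (grey hexagons). All 9 points of the chromosome 5 windows lie left of the dashed line, the median of 6.33 over all peaks.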

How the data were processed

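H3K27ac ChIP and input DNA were sequenced from LOUCY, 1 library each, single-end and unstranded per the labels' protocols. Bowtie2 and the hg19 build are named in the submitters' processing notes, with the aligner's version and settings not given in the sources used here. Per the file headers, the authors called broad peaks with MACS2 2.1.0.20140616 on the ChIP against the input library, at a q cutoff of 0.05, with tags of 84 bp, a fragment length of 204 bp and 1 tag kept per position, which limits how high a strong peak can get. The bigger of the 2 libraries was scaled down. The list comes from 1 library pair. The fold enrichment deposited by the authors is a ratio, ChIP over local input, and the deposited p-values and q-values are given as -log10 values, 1 per broad peak. They are the authors' values and serve here to describe, rank and filter peaks. The deposited pileup was below 0 in every row and was not used.

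The windows, members and gene lists were chosen with earlier results of these data known. Every member, every peak touching a window and the nearest peak on either side were named. Background stretches were consecutive pieces of the 22 autosomes and chromosome X in hg19, with lengths from GenomeInfoDb 1.38.1. The implied input level is the Poisson rate at which a peak's fold, with 1 added to ChIP and input, has its -log10 p. It is approximate for broad peaks and was chosen after seeing the data. Levels above 20 were left out of medians of the input. Gene order and promoters came from RefSeq tables of GRCh38.p14, and no coordinate was converted between builds. Peaks touching a window, their fold, the covered share, joined regions and promoter matches were recomputed under stricter thresholds on q and fold, other overlaps and window edges, a 5 kb joining distance and 1 strand. No test was run, as there were no replicates. Tools were Python 3.11.15, matplotlib 3.10.9, scipy 1.17.1, pandas 2.3.3 and numpy 2.4.6.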

Additional observations from a re-analysis of the deposited data

How the results depend on the processing

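The number of peaks touching the windows, 17 as reported, was 11 at a -log10 q of 5 or more, 7 at 10 or more and 9 at a fold of at least 4, because weak peaks were removed. It was 12 to 22 under the other overlaps and window edges. Windows with a peak numbered 5 as reported, 3 at a -log10 q of 10 or more, and 4 or 5 under the other alternatives. The covered share, 27.1% as reported, was 21.0% at a -log10 q of 5 or more, 16.0% at 10 or more, 18.4% at a fold of at least 4, 31.4% with windows widened by 10 kb, 24.9% with windows narrowed by 5 kb and 21.3% for peaks wholly inside. The highest fold at IL10 was 5.71 when the midpoint had to lie inside, and that at LTA and TNF was 3.22 under this rule and 3.22 with narrowed windows, both by leaving out peaks that cross an edge. With widened windows the highest fold was 7.24 at IL3 and CSF2 and 2.92 at IFNG, from peaks beyond the edge, and narrowed windows left no peak at IFNG. The windows met 7 joined regions, and 8 with joining within 5 kb, where the region at IL10 ranked 8 of 35140. On the given strand alone, 2 of the 9 promoters (22.2%) held the NFAT core, against 12.7% of all, and 2 the NF-kB pattern, against 45.9% of all, since matches on the other strand were left out. Restricting to peaks wholly inside and ranking by implied ChIP level were chosen after seeing the data. No paired analysis was possible because the ChIP and the input had 1 library each. With 1 library, neighbouring values have no replicate check.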
